A study of Drosophila melanogaster with 3 samples.

Results

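The 9 genes reported as Ets21C targets in regeneration and tumours, namely Mmp1, Mmp2, Timp, Ilp8, Pvf1, Pvr, upd1, upd2 and upd3, were followed here through the binding profile of the ETS-family transcription factor Ets21C. They were chosen by name as secreted growth, matrix and cytokine genes, with the receptor Pvr, that earlier work tied to Ets21C and the stress kinase JNK. All 9 were found by gene name among 13945 protein-coding genes of the main chromosome arms. Binding was measured by chromatin immunoprecipitation with sequencing (ChIP-seq) with an antibody against GFP, in a Drosophila melanogaster strain (d.ets6-GFP) that stably carries Ets21C with GFP at its C-terminus. The single group consisted of 3 biological replicates of entire animals, males and females together, collected as white prepupae, when metamorphosis begins. All carried the tagged protein. The labels name no wound, tumour or other treatment, and no untagged animals were analysed here. The promoter that drives the tagged protein and the number of animals per replicate are not given in the labels. With 1 group, no comparison between groups and no test was made, and values are given per replicate.

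Ets21C is switched on by JNK signalling after wounding and in tumours, and acts there together with AP-1, the dimer of Jun and Fos. The genes followed here are parts of the wound response that cells send to each other. The Upd proteins are cytokines that activate the JAK-STAT pathway through the receptor Domeless, Pvf1 is a growth factor for the receptor tyrosine kinase Pvr, and Ilp8 is a relaxin-like hormone by which damaged imaginal discs delay pupariation. Mmp1 and Mmp2 are the matrix metalloproteinases of the fly, which cut the basement membrane, and Timp inhibits them. In a whole prepupa the signal averages every tissue, so a site bound strongly in few cells and one bound weakly in many cannot be told apart.

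Ets21C peaks lay inside 3 of the 9 genes, Mmp2, Pvf1 and Pvr, and at the promoter of 1 of them, Mmp2. Within 10 kb the count was 4, which for 9 genes is close to the share among all coding genes. The gene added was upd3, through a peak 9630 bp past its end. The counts rest on the optimal list, the 4505 peaks that the authors retained by the irreproducible discovery rate (IDR). IDR weighs how peaks rank between lists, and an optimal peak need not have a summit in every replicate list. A promoter peak has its summit within 500 bp of any transcription start site (TSS) of the gene. Optimal promoter peaks were present at 1 of the 9 genes and at 15.2% of all coding genes. Counting summits between the ends of a gene, 3 of the 9 (Mmp2, Pvf1 and Pvr) had an optimal peak, beside 10.7% of coding genes. These genes are long: the 9 have a median length of 9133 bp, against 2166 bp for all coding genes. Among the 4 that reach 10000 bp, 3 had an optimal peak inside, beside 42.6% of coding genes of that length. Within 10 kb of the gene, 4 of 9 had an optimal peak, beside 56.0% of coding genes. At the same 4 genes at least 1 such peak was also in the top list of every replicate, beside 29.6% of coding genes. For Pvr and upd3 these were only peaks past the end of the gene, and this share is not matched for gene length. The top list of a replicate is its 4505 peaks of highest signal, and a peak counts as found where a summit lies within 100 bp. The genes Mmp2, Pvf1 and Pvr had 4 optimal peaks each in reach, and 7.27% of coding genes of any length had 4 or more. This cut-off was not planned and equals the counts of these 3 genes, so the share only describes them. The window of Mmp2 spans 92720 bp, with 4.31 optimal summits per 100 kb. Of the 13 optimal peaks of the 9 genes, 5 lay at promoters of other coding genes.

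**Figure D1:**
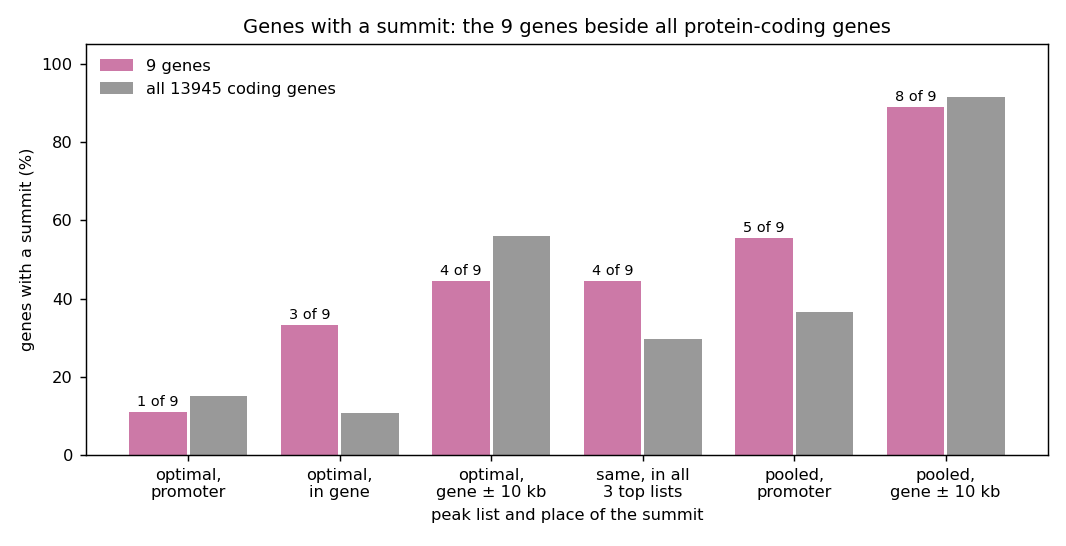
Percentage of genes with a summit, for the 9 genes (pink, with their number) and for all 13945 protein-coding genes (grey), by peak list and place of the summit. In the optimal list the promoter and 10 kb shares lie close to those of all coding genes, given that only 9 genes are counted. Their share with a peak inside the gene lies above. So does their share with a 10 kb peak in all 3 top lists, 4 of 9 beside 29.6%, for Pvr and upd3 only through peaks past the gene. Gene length differs between the sets.

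With weaker calls included, most of the 9 genes had a peak in reach, as did most coding genes. The pooled list, made by the authors from all 3 replicates, holds 27085 peaks and, as its label says, background too. It had a promoter peak at 5 of the 9 genes (Mmp1, Mmp2, Pvf1, Pvr and upd3), beside 36.6% of coding genes, and a peak within 10 kb at 8, all but Ilp8, beside 91.5%. In the top lists of replicates 1, 2 and 3, none of the 9 had a promoter peak, beside 8.68%, 17.4% and 18.6% of coding genes. In the whole replicate lists of 30000, 28006 and 30000 peaks, 1, 3 and 6 of the 9 had one, beside 22.4%, 39.6% and 52.1%. The pooled list had 77 peaks in reach of the 9 genes, the 13 optimal peaks among them. Of the 77, 12 were found in the whole lists of all 3 replicates, 24 in 2, 34 in 1 and 7 in none. Among the 12, 6 are optimal peaks. Introns held 45 of these 77 summits and intergenic sequence 22, with 1 in coding sequence. The lists hold no read counts, so the depth behind each peak is unknown. Optimal summits numbered 4.01 per 100 kb in the windows of the 9 genes, beside 3.35 over the main arms.

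**Figure D2:**
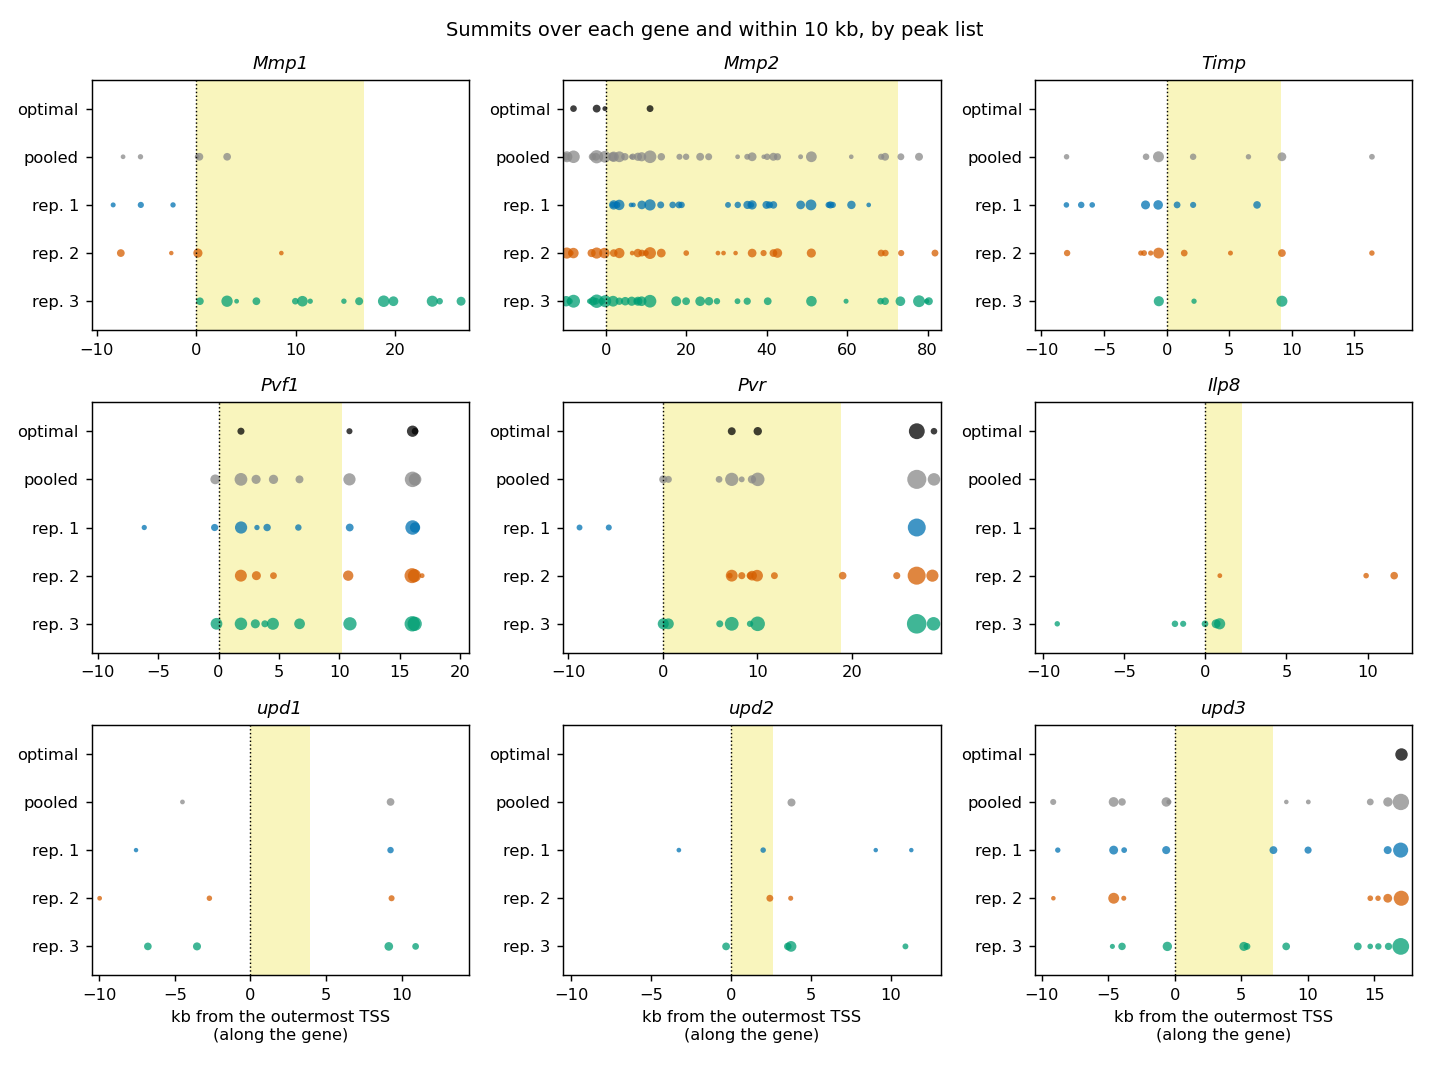
Summits over each gene (yellow) and within 10 kb of it, in the optimal, pooled and 3 replicate lists. The horizontal axis gives kb from the outermost TSS along the gene, and point area grows with the log of the signal over the lowest signal of that list. Optimal points (top row) appear at Mmp2, Pvf1, Pvr and upd3, and Ilp8 has no pooled point.

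Among the ligands, the highest optimal peak in reach lay in the upd cluster, between upd3 and upd1. The 3 upd genes lie on X, upd2 (FBgn0030904, X:18240654-18243284, minus strand), upd3 (FBgn0053542, X:18277233-18284596, plus strand) and upd1 (FBgn0004956, X:18305354-18309291, minus strand). The peak at X:18294108-18294363 had a signal of 537, rank 455 of the 4505 optimal peaks, whose median signal was 192. Its summit lay 9630 bp past the end of upd3 and 11128 bp past the end of upd1, in intergenic sequence, so the 10 kb reach assigned it to upd3 alone. The nearest TSS of any kind was that of the non-coding RNA gene lncRNA:CR15061, 1846 bp away. The replicates gave it signals of 133, 137 and 251, at ranks 421, 636 and 427 of their own lists. Signal scales differ between lists, so height is given as the signal over the median of the replicate's top list. On that scale the peak had heights of 3.28, 2.19 and 2.74 (mean 2.74 ± 0.542, SD, n = 3), above the top-list median in every replicate. The 3 replicate summits fell within 46 bp of each other. The sequence is shown because this was the only one of the 13 optimal peaks at the 9 genes that lay outside genes and promoters and in the top list of every replicate. It is given on the plus strand of Release 6 (RefSeq), chrX:18294126-18294326, with matches to the ETS core GGAA on either strand in capitals.
upd3 to upd1 peak: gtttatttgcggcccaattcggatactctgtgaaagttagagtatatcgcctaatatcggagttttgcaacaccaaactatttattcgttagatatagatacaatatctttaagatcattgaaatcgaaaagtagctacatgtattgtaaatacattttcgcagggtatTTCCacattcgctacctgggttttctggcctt

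The rest of the upd cluster held weak calls. Upstream of upd3, whose product is the cytokine most often linked to wounds and infection, a pooled peak 4605 bp before the TSS had a signal of 69.6, and the replicates gave 23.2, 38.3 and 12.5 there. Its mean height was 0.440 ± 0.263 (SD, n = 3), and only in replicate 2, at rank 4234, was it in a top list. A second pooled peak 643 bp before the TSS (signal 65.4) was found in replicates 1 and 3, with signals of 19.7 and 25.9, but not in replicate 2. Past the end of upd3, a pooled peak at 8656 bp (signal 63.6) was found in replicates 1, 2 and 3. Its signals there were 19.3, 23.4 and 17.2, with a mean height of 0.346 ± 0.147 (SD, n = 3), outside every top list. The pooled promoter peak of upd3, 442 bp before the TSS, had a signal of 31.0 and no replicate summit within 100 bp; the nearest, in replicate 3 at 122 bp, was the summit of 25.9 already given. At upd1, the founding member of the cluster, the highest summits were 8226, 8295 and 8111 bp from the TSS in replicates 1, 2 and 3, past the end of the gene, with signals of 14.9, 14.4 and 22.4 and heights of 0.368, 0.230 and 0.244. No replicate had a summit inside upd1, and at upd3 only replicate 3 had any inside, 2 in number. At upd2, which the fat body releases as a nutrient signal, the pooled list had 1 peak, 1124 bp past the end of the gene, with a signal of 48.8. Replicates 2 and 3 had it with signals of 12.7 and 35.8, and replicate 1 had no summit there. All replicate summits of upd1 and upd2 lay outside the top lists.

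Pvf1 carried an intronic peak of modest height that was found in every replicate. Pvf1 (FBgn0030964, X:18832682-18842901, plus strand) has a single TSS. The optimal peak at X:18834340-18834739, in an intron 1858 bp after the TSS, had a signal of 156, rank 2981. Its signals in replicates 1, 2 and 3 were 53.1, 50.9 and 57.5, at ranks 1610, 2965 and 4463. The heights were 1.31, 0.812 and 0.627 (0.917 ± 0.354, SD, n = 3), so it stood above the top-list median in replicate 1 alone. The replicate summits lay within 17 bp of each other. The window around it, chrX:18834440-18834640 on the plus strand, held 3 matches to GGAA or its complement, in capitals.
Pvf1 intronic peak: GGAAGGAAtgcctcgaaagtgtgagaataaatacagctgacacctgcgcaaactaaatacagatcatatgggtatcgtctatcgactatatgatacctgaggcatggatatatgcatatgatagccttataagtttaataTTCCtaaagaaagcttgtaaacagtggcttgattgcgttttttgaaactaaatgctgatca

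The other 3 optimal peaks in reach of Pvf1 lay past its end, at promoters of its neighbours htk and shop. The highest, at X:18848593-18848785, had a signal of 388 (rank 796) and heights of 2.66, 2.11 and 1.62 in replicates 1, 2 and 3 (2.13 ± 0.523, SD, n = 3). It was within 500 bp of TSSs of both htk and shop, as was the peak at X:18848749-18849148, with a signal of 147 and heights of 0.795, 1.14 and 1.11 (1.02 ± 0.191, SD, n = 3). The fourth, at X:18843318-18843717, lay 617 bp past the end of Pvf1 and 145 bp before a TSS of htk, with a signal of 134. It was found in replicates 1 and 3 with heights of 0.462 and 0.803. Replicate 2 had a summit 104 bp away, just past the 100 bp limit, with a signal of 33.2 and a height of 0.530. This last window, chrX:18843418-18843618, is shown because it holds the word TATCGATA, in capitals, the site of the promoter and insulator factors DREF and BEAF-32, and no GGAA.
Peak past the end of Pvf1: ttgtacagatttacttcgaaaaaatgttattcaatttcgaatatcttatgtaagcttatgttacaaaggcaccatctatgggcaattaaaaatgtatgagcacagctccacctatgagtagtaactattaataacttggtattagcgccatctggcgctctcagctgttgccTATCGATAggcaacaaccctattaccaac
At the Pvf1 TSS itself the pooled list had a peak 271 bp upstream with a signal of 70.5. Replicates 1 and 3 had promoter summits of 16.8 and 46.8, 320 and 167 bp upstream, and replicate 2 had none.

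Ilp8 was the only one of the 9 genes with no pooled peak in reach. Ilp8 (FBgn0036690, 3L:17029812-17032080, minus strand) had no optimal or pooled peak over the gene or within 10 kb, and no peak of replicate 1. Replicates 2 and 3 had summits 13 bp apart in its intron, 889 and 876 bp after the TSS. Their signals were 12.2 and 40.1, at ranks 26347 and 7105, with heights of 0.195 and 0.438. Replicate 3 also had a summit 26 bp before the TSS, with a signal of 15.6. The replicate 2 summit was near the lowest signal of that list, 11.8, and the replicate 3 promoter summit ranked 21149 of 30000.

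Pvr, the receptor for Pvf1 and its relatives, had 2 optimal peaks inside the gene, both found in replicates 2 and 3 and neither in replicate 1. Pvr (FBgn0032006, 2L:8220980-8239878, minus strand) has 13 transcripts that start at 3 TSSs. The intronic peak at 2L:8229624-8230023 had a signal of 198 (rank 2154), 853 bp after the innermost TSS. Replicates 2 and 3 gave it signals of 46.6 and 113 and heights of 0.743 and 1.23. The peak at 2L:8232373-8232772 had a signal of 181 (rank 2450), 1896 bp before the same TSS and within an intron of the longer transcripts. Its signals in replicates 2 and 3 were 49.1 and 86.0, with heights of 0.783 and 0.939 and summits 1 bp apart. Replicate 1 had no summit anywhere inside Pvr, while replicates 2 and 3 had 7 and 6. The first window, chr2L:8229724-8229924, is shown because it was the only optimal peak of the 9 genes with the AP-1 word TGANTCA, in capitals with a GGAA, and the second, chr2L:8232473-8232673, for comparison. Both are on the plus strand.
Pvr intronic peak after the innermost TSS: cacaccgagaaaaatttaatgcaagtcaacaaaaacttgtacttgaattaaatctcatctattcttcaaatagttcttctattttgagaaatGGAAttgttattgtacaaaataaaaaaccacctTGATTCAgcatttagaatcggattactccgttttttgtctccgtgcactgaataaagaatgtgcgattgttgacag
Pvr intronic peak before the innermost TSS: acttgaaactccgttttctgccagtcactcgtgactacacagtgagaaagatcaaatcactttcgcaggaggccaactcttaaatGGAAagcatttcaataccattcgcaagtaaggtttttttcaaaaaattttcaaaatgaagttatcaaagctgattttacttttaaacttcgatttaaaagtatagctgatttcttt

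The highest peak in reach of any of the 9 genes lay past the end of Pvr but at other promoters. At 2L:8212830-8213189, 7977 bp past the gene, a peak with a signal of 1669 ranked 42 of the optimal list. It sat 44 bp after the TSS of CG8360 and within 500 bp of that of CG8372. Its signals of 404, 433 and 830 gave heights of 9.99, 6.90 and 9.06 (8.65 ± 1.59, SD, n = 3). Without this peak, no Pvr peak was in the top lists of all 3 replicates. A further peak, at 2L:8210988-8211387 with a signal of 145, lay at a promoter shared by Ssb-c31a and the gene of the heterochromatin protein HP1a, 66 bp before the TSS of the HP1a gene, and was found within 100 bp in replicate 3 alone, with a height of 0.864. Replicate 2 had a summit 166 bp away, in its top list, with a signal of 53.6 and a height of 0.855. At the TSSs of Pvr the pooled list had 3 peaks, with signals of 51.2, 40.6 and 49.8, each found in a single replicate. Replicates 2 and 3 also had summits 5 bp apart, 44 and 39 bp after the innermost TSS, with no pooled summit within 100 bp. Their signals were 16.7 and 14.8, at ranks 14485 and 22509.

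**Figure D3:**
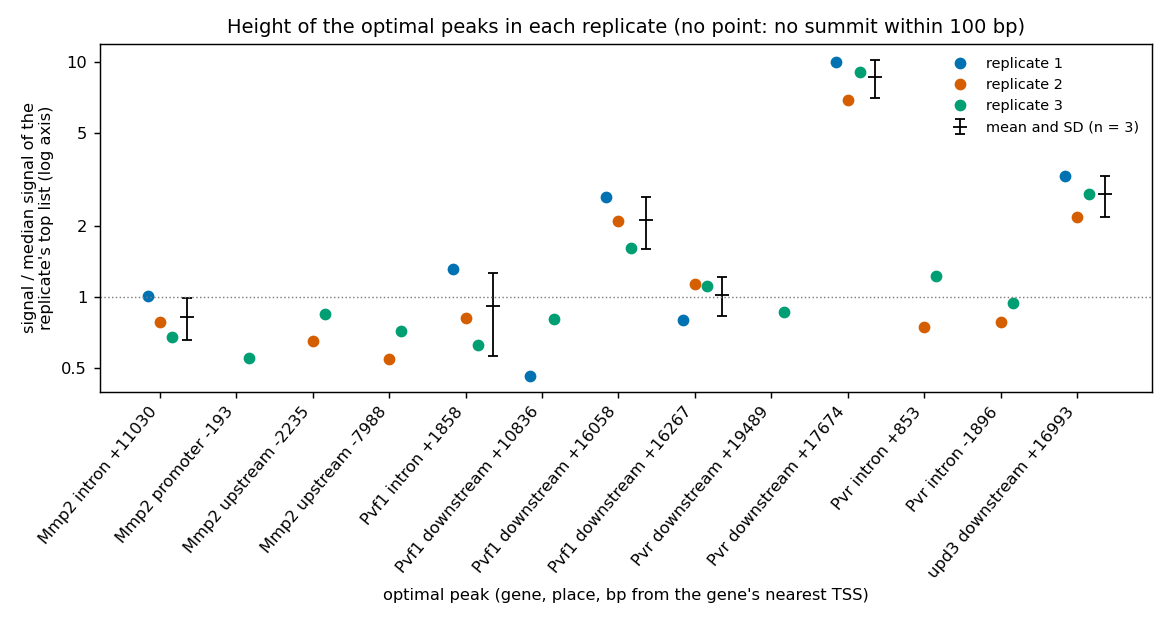
Height of the 13 optimal peaks in each replicate, as signal over the median of the replicate's top list (log axis), with mean and SD where all 3 replicates had the peak. Labels give the gene, the place and the distance in bp from its nearest TSS. The peak past Pvr reached 6.90 to 9.99 and the one past upd3 2.19 to 3.28, while the only promoter peak, at Mmp2, was found in replicate 3 alone with a height of 0.551.

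Timp had no optimal peak, but a pooled peak found in all 3 replicates lay just before its TSS. Timp (FBgn0025879, 3R:10203875-10213007, minus strand) lies within an intron of Syn, the Synapsin gene. The pooled peak 651 bp before its TSS had a signal of 94.4, rank 5294, while the lowest signal in the optimal list was 109. Replicates 1, 2 and 3 had it with signals of 26.8, 37.3 and 30.8, at ranks 3940, 4376 and 9673. The heights were 0.661, 0.595 and 0.337 (0.531 ± 0.172, SD, n = 3), all below the top-list medians, though replicates 1 and 2 held it in their top lists. A second pooled peak, 74 bp past the end of Timp with a signal of 56.9, was found in replicates 2 and 3 with signals of 19.0 and 39.0. The window of the first, chr3R:10213558-10213758 on the plus strand, is shown as the site nearest to the optimal threshold among the 5 genes without an optimal peak, with its 1 match to the complement of GGAA in capitals.
Peak before Timp: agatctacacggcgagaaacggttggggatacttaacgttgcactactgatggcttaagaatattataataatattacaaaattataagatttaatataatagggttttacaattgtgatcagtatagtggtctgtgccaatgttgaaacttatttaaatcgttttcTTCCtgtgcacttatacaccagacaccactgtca

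Mmp2 was the only one of the 9 genes with an optimal promoter peak, and that peak was among the weakest of the list. Mmp2 (FBgn0033438, 2R:9611139-9683858, minus strand) is also the longest of the 9, at 72720 bp. The promoter peak at 2R:9683851-9684250, 193 bp upstream of the outermost TSS, had a signal of 115 and ranked 4251 of 4505. Only replicate 3 had a summit within 100 bp of it, with a signal of 50.5 and a height of 0.551. Replicate 2 had one 119 bp away, with a signal of 34.4 and a height of 0.549, and replicate 1 had none at the promoter. Neither replicate summit was in a top list. The intronic peak at 2R:9672628-9673027, 11030 bp into the gene, had a signal of 151 (rank 3120) and was found in all 3 replicates. Its signals were 40.7, 49.0 and 62.1, with heights of 1.01, 0.782 and 0.678 (0.822 ± 0.168, SD, n = 3), and the replicate summits fell within 17 bp. The peak 2235 bp upstream, at 2R:9685893-9686292, had the highest signal of the 4, 179. Replicates 2 and 3 gave it signals of 40.7 and 77.5. The peak 7988 bp upstream (signal 146), in an intron of Uba1, which encodes the ubiquitin-activating enzyme, was also found only in replicates 2 and 3. All 27 summits of replicate 1 lay inside the gene, and those of replicates 2 and 3 divided into 19 inside and 8 outside, and 20 and 13.

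Mmp1, the metalloproteinase used as a standard readout of JNK activity in discs, had no optimal peak within reach. The nearest optimal summit was 55458 bp from a TSS of Mmp1 (FBgn0035049, 2R:24671294-24688184, minus strand), and 91.8% of coding genes had one nearer. The pooled list had 3 weak promoter peaks, with signals of 46.0, 46.8 and 29.7, each found within 100 bp in 1 replicate. Replicate 1 had no summit in the gene, replicate 2 had 2 and replicate 3 had 9. The highest promoter summits were 174 bp after a TSS in replicate 2, with a signal of 25.3 and a height of 0.404, and 7 bp after another in replicate 3, with 41.9 and 0.458. None of the 21 replicate summits within 10 kb of Mmp1 had a partner within 100 bp in another replicate. At the other end of the range, the nearest optimal summit lay 193 bp from a TSS of Mmp2, 853 bp from one of Pvr and 1858 bp from that of Pvf1. It lay 14033 bp away for upd1, 15908 bp for Ilp8, 16993 bp for upd3, 42369 bp for Timp and 50942 bp for upd2. The median was 15908 bp over the 9 genes, against 9439 bp over all coding genes.

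**Figure D4:**
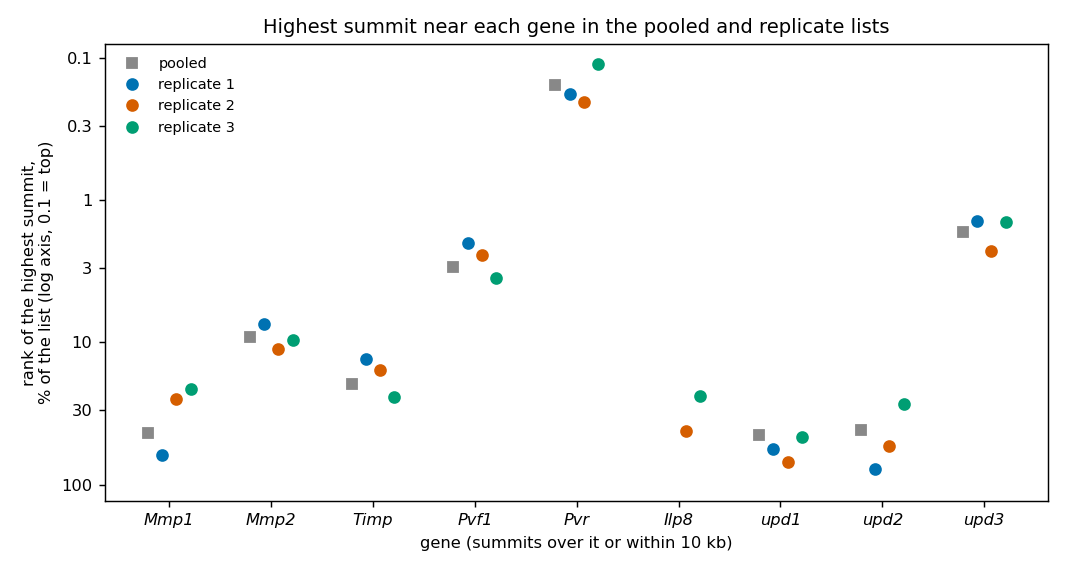
Rank of the highest summit over each gene or within 10 kb, as a percentage of the list (log axis, highest peaks at the top), in the pooled list (squares) and the 3 replicates (circles). Pvr, upd3 and Pvf1 stand in the top 3.51% of every list shown, through the peaks past their ends. Ilp8 has no point for the pooled list or replicate 1.

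The 13 optimal peaks of the 9 genes thus fell into 1 at the own promoter, 4 in introns of Mmp2, Pvf1 and Pvr, 5 at promoters of other coding genes, 1 inside another gene and 2 in intergenic sequence. Of the 13, 6 were found in all 3 replicates. Ordered by mean height, the peak past Pvr (8.65) was above every other peak in each replicate. The peaks past upd3 (2.74) and past Pvf1 at htk and shop (2.13) overlapped in their replicate ranges, 2.19 to 3.28 and 1.62 to 2.66, although the upd3 peak was the higher of the pair in each replicate. The remaining 3, the second peak at htk and shop (1.02) and the intronic peaks of Pvf1 (0.917) and Mmp2 (0.822), did not differ beyond their spread.

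Words of candidate factors were counted on both strands in the 201 bp around each optimal summit. The ETS core GGAA, short enough to be common, lay at 11 of the 13 peaks and at 74.1% of the 4482 optimal peaks on the main arms. The longer ETS word CCGGAAG, which contains the core, lay at none of the 13 and at 0.513% of all. AP-1 (TGANTCA) lay at 1 of the 13, the Pvr intronic peak, and at 5.20% of all. The STAT word TTCNNNGAA and its form with 4 bases between TTC and GAA, which can overlap GGAA, lay at none of the 13 and at 5.89% and 6.98% of all. The DRE word TATCGATA lay at 2 of the 13, both at promoters of htk, and at 2.48% of all. Bases G and C made up 34.7 ± 3.97% of the 13 windows, and 34.7 ± 5.90% of all windows (mean ± SD over peaks). A match describes the letters and no binding event.

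Other genes of these pathways, taken from 5 lists, had an optimal promoter peak at 6 of 46, beside the 15.2% of all coding genes given above. Inside the gene 15 of the 46 had an optimal peak, beside 10.7% of coding genes, and within 10 kb 32 had one, beside 56.0%. The listed genes include long ones: 23 reach 10000 bp, and 13 of these held an optimal peak, beside 42.6% of coding genes of that length. In the JAK-STAT list 1 of 10 had an optimal promoter peak, Ptp61F, a phosphatase that dampens the pathway, with a signal of 151 and a height of 0.761 ± 0.144 (SD, n = 3). In this list 4 of the 10 had an optimal peak inside the gene, beside 10.7% of coding genes, and 3 of these 4 are longer than 10000 bp. Of these, Ptp61F, 132765 bp long, held 11. Socs36E, 13743 bp long and a feedback inhibitor induced by STAT, held 5 with none at its promoter. In the other lists, given next, genes with a peak inside were 3 of 6 for Pvr signalling and 0 of 6 for the Ilp8 relay. They were 1 of 10 for basement membrane and 7 of 14 for the regulators. Length enters here too, and the share for coding genes that reach 10000 bp is 42.6%. Among listed genes of that length, 3 of 4 for Pvr signalling and 6 of 8 regulators held one. For basement membrane it was 1 of 5, and for the Ilp8 relay 0 of 3. Of 6 genes of Pvr signalling, 1 had a promoter peak, mbc, an activator of the GTPase Rac. Its peak had a signal of 527, 194 bp upstream of the TSS, and heights of 4.55, 2.70 and 1.72 in replicates 1, 2 and 3 (2.99 ± 1.44, SD, n = 3), each higher than any optimal peak inside the 9 genes in the same replicate. The related ligand genes Pvf2 and Pvf3 had none at promoters but 1 and 3 inside. None of 6 genes of the Ilp8 relay, its receptor gene Lgr3 among them, and none of 10 basement membrane genes, laminins and collagen among them, had a promoter peak. Of 14 regulators reported upstream of or beside Ets21C, 4 had one. They were Atf3, a stress-induced bZIP factor (signal 475, height 2.47 ± 0.777, SD, n = 3), puc, the JNK phosphatase (242), yki, the Hippo pathway co-activator (223), and kay, the fly Fos (119). The peak of puc was found in replicates 2 and 3. That of yki was found within 100 bp in replicate 2 alone, with a replicate 3 summit of 70.2 lying 116 bp away. The peak of kay, 443 bp upstream of a TSS, had heights of 0.615, 1.11 and 0.151 in replicates 1, 2 and 3. It was in the top lists of replicates 1 and 2, and ranked 24382 in replicate 3. At Ets21C itself no optimal peak lay over the gene or within 10 kb.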

How the data were processed

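The authors deposited peak lists, not reads. Per the notes deposited with the files, each replicate list derives from the alignment of that replicate and the pooled list from all 3, in each case with 1 further file common to all lists, and the optimal list derives from these lists by IDR. Per those notes the lists are on dm6; no source used here names the aligner, the caller or their settings. The deposited signal per peak was used as it stands, on a scale of its own in each list. The deposited −log10 q values were used for nothing further. Summit offsets, deposited beside each peak (other values), gave 1-based summits. The dm3 lists were not used.

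Genes and TSSs came from Ensembl release 115 and sequence from RefSeq (Release 6 both, the same coordinates as dm6); every peak lay within its lengths. Places, matches and words were computed with Python 3.11.15, pandas 2.3.3 and numpy 2.4.6 and tested on simulated data. The 9 genes, the pathway lists and the words were chosen with earlier results of these data known. Named were the 9 genes, the coding gene nearest each of their optimal peaks, other genes whose promoter such a peak shares, and in each pathway list up to 4 genes with the highest promoter peak; Socs36E, Pvf2, Pvf3, Lgr3 and Ets21C were named after their values were seen, and the class of genes of 10000 bp or longer was added then. Alternatives covered windows, signal, summit matching, list length and each replicate left out.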

Additional observations from a re-analysis of the deposited data

How the results depend on the processing

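No paired analysis was possible because there was 1 group only. The number of the 9 genes with an optimal promoter peak, 1 in the analysis as given, was 2 with promoters of 1000 bp (Pvr added) and 0 in the 2252 optimal peaks of higher signal. It was 0 without each replicate in turn (0 to 0), since these settings require a peak in the top list of each replicate kept, and the Mmp2 promoter peak was in no top list. With an optimal peak inside, 3 genes became 1, Pvr, among the peaks of higher signal, and 2 to 3 with a replicate left out: Pvr was lost without replicate 2 and without replicate 3. With an optimal peak within 10 kb, 4 genes became 3 at 5 kb and 6 at 20 kb (Ilp8 and upd1 added), and stayed 4 with a replicate left out. The 4 genes with a peak in all 3 top lists numbered 4 under each other summit distance and list length. Pooled promoter peaks were at 3 genes with promoters of 250 bp, against 5. The shares of all coding genes under these other settings are not given, and a wider window takes in more genes of any kind. These counts therefore only describe the 9 genes. The median height over the 6 peaks found in every replicate was 1.57, and 5.49 relative to the median of whole replicate lists, a change of scale. Depth is unknown here.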
